A study of Mus musculus with 4 samples.

Results

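Deletion of Dcaf13 in the mouse oocyte was compared between 2 stages of oocyte growth, gene by gene. For each gene the quantity read was the stage difference: the deletion change in fully grown oocytes (deletion minus control) minus the deletion change in growing oocytes, on the scale of log2(FPKM + 1). FPKM is a fragment count divided by the length of the transcript and by the mapped fragments of that library. A positive stage difference means that the value of deletion relative to control was higher in fully grown than in growing oocytes. Genes that reached 5 FPKM in any library were taken, which gave 8235 of the 23235 genes in the table.

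Growing oocytes, control and deletion, came from mice aged 14 days, and fully grown oocytes of both kinds from mice aged 23 days. The 23-day-old mice had received 5 IU of PMSG, a gonadotropin that stimulates follicle growth, 48 h before collection, and the 14-day-old mice are not labelled as treated. Stage, age and hormone therefore cannot be told apart. All 4 groups carried floxed Dcaf13 alleles (Dcaf13fl/fl) on a C57B6 background, and the deletion groups also carried Gdf9-Cre, in which the promoter of the oocyte gene Gdf9 drives Cre recombinase. Each group was 1 library of 10 pooled oocytes, prepared from polyadenylated RNA by Smart-seq2. With 1 library per group there is no replicate error and no test: a gene past the size rule, a stage difference of 1 or more in size, differs between these libraries, and whether the conditions differ by as much is not known.

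DCAF13 is a nucleolar protein that takes part in assembly of the small ribosomal subunit, and in the CRL4 ubiquitin ligase it is the subunit that binds substrates. A growing oocyte transcribes actively and accumulates ribosomes and maternal mRNA. Towards the end of growth its chromatin gathers around the nucleolus and transcription largely stops, so that the fully grown oocyte lives mainly on stored RNA.

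The symbol column of the deposited table appears to run in another sort order than its values. Values were re-paired with symbols in byte order, which left 4113 genes with the same symbol and gave 19122 another one. The median of 17 oocyte markers was 1270.5 FPKM after re-pairing and 22.5 FPKM as deposited. The pairing is an inference that was not checked with the submitters, and every gene named below except Dcaf13 depends on it unless its symbol was among those that stayed. Summed FPKM lay between 649397 and 678437 per library, and 7071 to 7621 genes per library reached 5 FPKM. Sequencing depth is not stated, so no counting error can be given for any value.

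Dcaf13 itself showed almost the same reduction at both stages. Its values were 96.1 FPKM in control and 38.9 in deletion at the growing stage, and 160.2 and 64.0 at the fully grown stage. Deletion libraries held 40.5% of the control value at the growing stage and 39.95% at the fully grown stage, a stage difference of -0.03.

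Promoters are shown for genes that the results below turn on, 3 from the genes with the most positive stage differences (Nmu, Defb41, Haus7) and 3 from those with the most negative ones (Gsc, Pdgfa, Zfp771). Each runs from 250 bases before to 50 bases after the RefSeq gene start, 5′ to 3′ on the gene's strand, in build GRCm38.p6. Capitals mark TATAAA, the TATA box core, and GGGCGG, a GC box core, searched on both strands, so that CCGCCC is the GC box core read on the opposite strand.
Nmu, chr5:76363728-76364027, minus strand: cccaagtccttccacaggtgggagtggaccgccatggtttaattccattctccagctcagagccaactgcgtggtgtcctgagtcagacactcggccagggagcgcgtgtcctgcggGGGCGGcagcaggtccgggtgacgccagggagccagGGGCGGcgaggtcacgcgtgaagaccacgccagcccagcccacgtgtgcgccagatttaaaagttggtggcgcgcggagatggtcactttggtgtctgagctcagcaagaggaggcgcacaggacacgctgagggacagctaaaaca
Defb41, chr1:18265089-18265388, minus strand: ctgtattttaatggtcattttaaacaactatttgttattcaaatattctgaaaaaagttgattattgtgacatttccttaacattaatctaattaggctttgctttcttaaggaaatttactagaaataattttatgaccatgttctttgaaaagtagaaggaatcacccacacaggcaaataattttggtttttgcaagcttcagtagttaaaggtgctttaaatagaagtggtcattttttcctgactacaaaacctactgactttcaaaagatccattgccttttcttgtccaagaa
Haus7, chrX:73458980-73459279, minus strand: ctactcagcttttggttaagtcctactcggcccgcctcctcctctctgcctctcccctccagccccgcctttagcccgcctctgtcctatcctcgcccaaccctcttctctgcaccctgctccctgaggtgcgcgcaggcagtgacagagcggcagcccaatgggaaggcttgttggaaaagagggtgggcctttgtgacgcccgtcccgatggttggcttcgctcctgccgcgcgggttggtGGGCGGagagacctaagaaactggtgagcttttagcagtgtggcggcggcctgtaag
Gsc, chr12:104473187-104473486, minus strand: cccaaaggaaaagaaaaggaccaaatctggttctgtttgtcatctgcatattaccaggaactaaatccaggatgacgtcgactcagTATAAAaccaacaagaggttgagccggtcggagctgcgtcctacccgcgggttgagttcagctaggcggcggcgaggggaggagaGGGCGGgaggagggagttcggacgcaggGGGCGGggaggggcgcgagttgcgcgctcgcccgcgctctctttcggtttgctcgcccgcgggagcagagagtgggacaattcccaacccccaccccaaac
Pdgfa, chr5:138994895-138995194, minus strand: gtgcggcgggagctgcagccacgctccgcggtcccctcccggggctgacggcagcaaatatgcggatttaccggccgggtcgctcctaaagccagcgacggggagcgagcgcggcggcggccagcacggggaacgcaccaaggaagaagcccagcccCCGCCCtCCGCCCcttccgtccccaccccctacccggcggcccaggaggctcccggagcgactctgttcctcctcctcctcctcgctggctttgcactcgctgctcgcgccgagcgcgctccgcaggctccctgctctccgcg
Zfp771, chr7:127244276-127244575, plus strand: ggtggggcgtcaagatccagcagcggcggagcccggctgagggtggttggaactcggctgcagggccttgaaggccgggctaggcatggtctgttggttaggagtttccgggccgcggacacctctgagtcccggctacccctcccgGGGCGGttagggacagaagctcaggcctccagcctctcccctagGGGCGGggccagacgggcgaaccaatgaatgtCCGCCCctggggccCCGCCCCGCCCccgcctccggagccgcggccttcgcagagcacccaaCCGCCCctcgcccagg
The promoters of the 3 genes with negative stage differences had GC contents of 60.3% (Gsc), 73.3% (Pdgfa) and 71.7% (Zfp771), and held 25, 37 and 25 CG dinucleotides. Those of the genes with positive stage differences ranged from 29.7% GC and 0 CG in Defb41 to 63.0% GC and 21 CG in Nmu, with Haus7 at 62.7% and 18 CG. The GC box core stood 6 times in Zfp771, 2 times each in Gsc, Pdgfa and Nmu, 1 time in Haus7 and 0 times in Defb41, and the TATA box core stood 1 time, in Gsc. Over 32841 RefSeq promoters of the same length, 35.7% held the GC box core, 13.6% held the TATA box core and the median GC content was 52.7%. For the 17545 matched by symbol to genes in the table the median GC content was 56.7%. The genes shown are not the most extreme on either side, so the contrast describes only these genes. The same comparison over all genes past the size rule was void, because promoters were found for only 112 of 154 genes with positive and 137 of 178 genes with negative stage differences, under the 80% needed.

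Most genes had a small stage difference. Its median over the 8235 genes was -0.01, 5% of genes lay below -0.76 and 5% above 0.68, and 6485 genes (78.7%) were under 0.5 in size. By the size rule 170 genes (2.06%) had a stage difference of 1 or more and 208 (2.53%) of -1 or less. Short RNA genes (snoRNA, scaRNA and microRNA), recognised by their symbols, made up 50 of the 8235 genes and 46 of the 378 past the rule (92.0% of the 50). LOC100302567, described as a snoRNA but not named as one, had 21.3 FPKM in fully grown control alone and stayed among the other genes. Of the other 8185 genes 332 were past the rule (4.06%), 154 in the positive direction (1.88%) and 178 in the negative one (2.17%), and the counts below are of these unless stated.

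**Figure D1:**
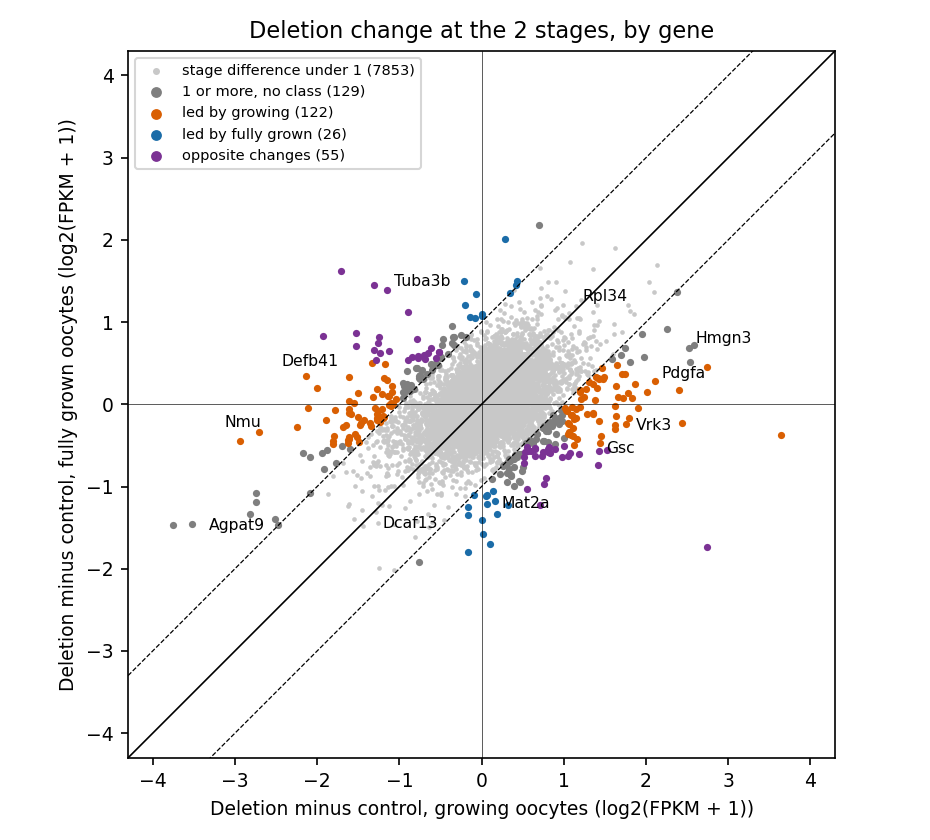
Deletion minus control in growing oocytes (horizontal axis) against fully grown oocytes (vertical axis), both in log2(FPKM + 1), for 8185 genes without short RNA genes, 1 point per gene; 1 gene lies outside the axes. The solid line marks equal changes and the dashed lines a stage difference of 1 in size; 122 genes led by growing oocytes lie near the horizontal axis and 26 led by fully grown oocytes near the vertical axis, while Dcaf13 and Rpl34 lie on the solid line.

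More of the genes past the rule were led by the growing stage than by the fully grown stage. A gene past the rule was read as led by growing oocytes where the growing change was also 1 or more and the fully grown change under 0.5 in size, and as led by fully grown oocytes in the reverse case. With short RNA genes included, 134 genes (1.63%) were led by growing oocytes, 70 of them higher (0.85%) and 64 lower in deletion (0.777%), and 53 (0.644%) by fully grown oocytes. Without them the counts were 122 and 26. Opposite changes, of 0.5 or more in size at both stages, were found in 58 genes (0.704%), of which 55 were no short RNA genes. The remaining 133 genes (1.62%) fell in no class, 59 with a positive (0.716%) and 74 with a negative stage difference (0.899%). The deletion changes also spread more widely at the growing stage, with an SD over the 8185 genes of 0.483 against 0.382 at the fully grown stage.

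Most of the genes with the largest positive stage differences stood low in the growing deletion library and near control in fully grown oocytes. Nmu (chromosome 5, minus strand, 76762520 to 76792802, mm9), which encodes the neuropeptide neuromedin U, was at 28.7 FPKM in control and 3.56 in deletion at the growing stage, and 41.0 and 32.2 at the fully grown stage. The growing deletion library was far below the other 3, and the stage difference was 2.36, from deletion changes of -2.70 and -0.34. Defb41, a beta-defensin (chromosome 1, minus strand, 18241059 to 18255219, mm9), stood at 47.1, 9.99, 36.4 and 46.6 FPKM in the same order. Its deletion changes were -2.13 and 0.35, and because the gene overlaps Gm15386 its reads may be shared. Among the genes named below, Kcnn2, Mat2a, Fam113b, Gltscr2, Snhg1, Snhg6, Slc48a1, Gm18756 and Atp6v0c-ps2 also overlap another gene. Olfr288, an olfactory receptor gene (chromosome 15, minus strand, 98016444 to 98025973), was at 15.7, 2.86, 20.7 and 20 FPKM. Only the growing deletion value departed from the others, with a stage difference of 2.07. Haus7, a subunit of the augmin complex that nucleates microtubules in the spindle (chromosome X, minus strand, 70682654 to 70704368), stood at 15.2, 5.44, 20.8 and 29.8 FPKM, with deletion changes of -1.33 and 0.50. For Haus7 the fully grown deletion library was also the highest of the 4.

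Further genes of this kind included secreted, immune and channel proteins. Fam162b, at 32.1, 10.7, 48.7 and 53.9 FPKM in the order growing control, growing deletion, fully grown control, fully grown deletion, had a stage difference of 1.64. Pglyrp1, which encodes a peptidoglycan recognition protein, was at 28.5, 9.04, 14.4 and 14.6 FPKM, so that the 2 fully grown libraries were nearly equal, and its stage difference was 1.57. Kcnn2, a calcium-activated potassium channel gene, stood at 30.9, 8.14, 36.4 and 25.8 FPKM, with deletion changes of -1.80 and -0.48. C1qb, a chain of complement component C1q, was at 72.1, 23.4, 35.1 and 32.4 FPKM, with changes of -1.58 and -0.11. In C1qb the library farthest from the others was growing control, since 32.4 and 35.1 lay closer to the growing deletion value.

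Other genes with positive stage differences were low in the deletion libraries at both stages, by less in fully grown oocytes. Prl8a2, a prolactin family member, was at 16.5 FPKM in control and 1.61 in deletion at the growing stage, and 20.3 and 8.35 at the fully grown stage, with deletion changes of -2.74 and -1.19. Agpat9, which encodes a glycerol-3-phosphate acyltransferase of lipid synthesis, stood at 21.8, 2.23, 14.3 and 5.07 FPKM, with changes of -2.82 and -1.33. Calr3, a calreticulin of the endoplasmic reticulum, was at 67.1, 15, 47.7 and 30.3 FPKM, with changes of -2.09 and -0.64. For these genes the deletion libraries were below both controls, and the stage difference, between 1.45 and 1.55, is one of degree.

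The most negative stage differences mostly belonged to genes that stood high in the growing deletion library alone. Vrk3, a member of the vaccinia-related kinase family (chromosome 7, plus strand, 52003999 to 52032884, mm9), was at 8.41 FPKM in control and 31.7 in deletion at the growing stage, and 8.35 and 7.32 at the fully grown stage. The 3 libraries other than growing deletion lay between 7.32 and 8.41 FPKM, and the deletion changes were 1.798 and -0.17. Gsc, which encodes the homeobox factor goosecoid (chromosome 12, minus strand, 105709419 to 105711446), stood at 8.0, 23.4, 4.15 and 2.72 FPKM, with changes of 1.44 and -0.47. Hmgn3, a nucleosome-binding protein gene (chromosome 9, minus strand, 83003549 to 83040214), was at 6.90, 44.3, 5.70 and 9.81 FPKM. It was higher in deletion at both stages, by 2.52 and 0.69 on the log2 scale. Pdgfa, a platelet-derived growth factor chain (chromosome 5, minus strand, 139452929 to 139470907), stood at 5.19, 25.6, 2.81 and 3.65 FPKM, with changes of 2.11 and 0.29.

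A further 7 genes, given next, had stage differences between -1.16 and -1.68 and, at the growing stage, deletion values above control. Hist1h4h, a replication-dependent histone H4 gene, was at 15.6, 33.4, 19.4 and 12.2 FPKM in the order growing control, growing deletion, fully grown control, fully grown deletion, with a stage difference of -1.68. Izumo4, a relative of the sperm protein IZUMO1, stood at 9.13, 26.3, 10.6 and 9.08 FPKM, and Zfp771, a zinc finger gene, at 16.6, 37.4, 4.48 and 2.90 FPKM. Both were highest in growing deletion and lowest in fully grown deletion, with stage differences of -1.63 and -1.62. Crym, which encodes the thyroid hormone-binding protein mu-crystallin, was at 17.5, 36.0, 6.96 and 4.60 FPKM, and Snapc2, a subunit of the complex that activates small nuclear RNA genes, at 7.78, 21.4, 3.40 and 3.05 FPKM. Tmem160 stood at 9.24, 30.8, 10.6 and 12.5 FPKM and Cstb, the protease inhibitor cystatin B, at 16.4, 47.3, 17.4 and 21.8 FPKM. Cstb and Tmem160 were nearly level across the libraries other than growing deletion, and the stage difference of Cstb, -1.16, became -0.98 once the trend with transcript GC and length was removed.

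**Figure D2:**
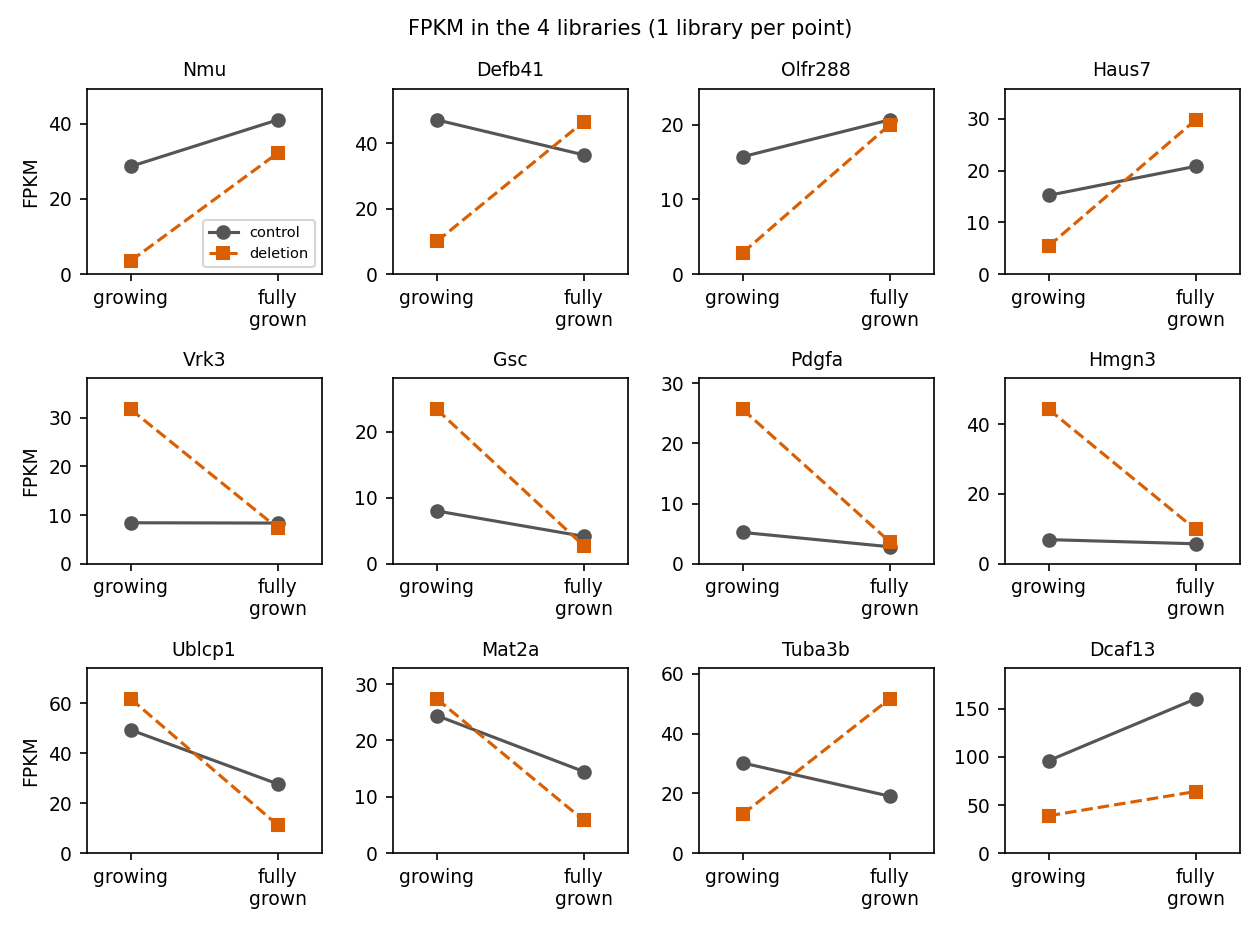
FPKM of 12 genes at the growing and fully grown stage, each panel with its own axis from 0; circles and solid lines are control libraries, squares and dashed lines deletion libraries, 1 library per point. The deletion point stands apart at the growing stage in the upper row (lower) and in Vrk3, Gsc, Pdgfa and Hmgn3 (higher). The lines cross in Ublcp1, Mat2a and Tuba3b, and also in Defb41, Haus7, Vrk3 and Gsc. In Dcaf13 the deletion library is lower at both stages.

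Few genes changed at the fully grown stage alone. Of the 53 genes led by fully grown oocytes, 21 were higher in deletion (0.255%) and 32 lower (0.389%), and 27 of them were short RNA genes. Mat2a, which encodes the enzyme that makes S-adenosylmethionine (chromosome 6, minus strand, 72382793 to 72389552, mm9), was at 24.4 FPKM in control and 27.4 in deletion at the growing stage, and 14.5 and 5.84 at the fully grown stage, with a stage difference of -1.34. Ublcp1, a phosphatase of the nuclear proteasome, stood at 49.4, 61.8, 27.7 and 11.2 FPKM, and Noto, a homeobox gene of notochord, at 126, 133, 67.0 and 30.5 FPKM. All 3 were close to control or slightly above it in growing oocytes and at 40.3%, 40.5% and 45.6% of control, respectively, in fully grown ones. In the other direction Hist1h4d, a histone H4 gene, stood at 17.9, 17.0, 13.5 and 35.6 FPKM, with deletion changes of -0.07 and 1.34. Taok3, a kinase gene, was at 13.3, 12.5, 14.1 and 30.4 FPKM, and Snhg1, a host gene of snoRNAs, at 30.5, 41.1, 30.4 and 84.5 FPKM. For these 3 genes fully grown deletion was the highest library, and their stage differences were 1.40, 1.13 and 1.03.

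Among genes at 20 FPKM or more in any library, leaving out short RNA, predicted and clone-named genes and pseudogenes, the most positive and the most negative stage difference came from opposite changes. Tuba3b, an alpha-tubulin gene (chromosome 6, plus strand, 145564483 to 145569997, mm9), was at 30.2 FPKM in control and 13.04 in deletion at the growing stage, and 19.1 and 51.6 at the fully grown stage. Deletion was below control in growing oocytes, with a change of -1.15, and above it in fully grown ones, with a change of 1.39. Its near-identical copy Tuba3a stood at 232, 204, 245 and 279.7 FPKM, with a stage difference of 0.37, and how reads were divided between the copies is not given in the sources used here, so the value of Tuba3b is uncertain. Snhg9, a snoRNA host gene that overlaps Snora78, was at 6.80, 19.96, 47.0 and 31.4 FPKM, with deletion changes of 1.43 and -0.57. The 2 control libraries of Snhg9 thus differed more than either deletion library did from its control.

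Genes that moved alike at both stages give the contrast. A deletion change of 1 or more in the same direction at both stages was found in 24 genes higher in deletion (0.291%) and 28 lower (0.34%), and Dcaf13 is among the latter. Batf3, a transcription factor of the AP-1 family, was at 19.3 FPKM in control and 6.47 in deletion at the growing stage, and 22.3 and 7.37 at the fully grown stage, which is 33.5% and 33.1% of control. Il1f9, an interleukin 1 family cytokine, stood at 46.3, 18.7, 15.3 and 4.97 FPKM, and Fam113b at 33.8, 14.9, 30.4 and 12.3 FPKM. In both genes each deletion library was lower than its own control. Rpl34, a large-subunit ribosomal protein gene that overlaps Rpl34-ps1, stood at 88.0, 196, 87.8 and 202 FPKM, and Tysnd1, a peroxisomal protease gene, at 20.8, 43.0, 7.25 and 16.2 FPKM. Hist1h1a, a linker histone gene, was at 17.6, 36.5, 28.4 and 59.9 FPKM and Cox8c, a subunit of cytochrome c oxidase, at 8.60, 20.4, 9.85 and 21.4 FPKM. These 4 genes were higher in deletion by close to the same factor at each stage, with stage differences between -0.11 and 0.05. Apart from Dcaf13, the target, the genes named in this paragraph were chosen for the smallest stage differences among the 24 and the 28. Their close match between the stages therefore follows from the choice.

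The 2 stages share no library, so their deletion changes can be set side by side. With short RNA genes included, 212 genes were higher (2.57%) and 219 lower (2.66%) by 1 or more in growing deletion, and 91 were higher (1.11%) and 88 lower (1.07%) in fully grown deletion. Of the 8185 other genes, 66.7% had a change of the same sign at both stages. Of the 201 of them that were higher by 1 or more in growing deletion, 159 (79.1%) were also above control in fully grown oocytes, where their median change was 0.41, and of 215 lower ones 183 (85.1%) were also below, with a median of -0.44. These genes were chosen on their growing value, so a smaller median at the other stage follows in part from the choice. Of the genes chosen the other way round, on the fully grown change, 69 of 79 higher genes (87.3%) and 55 of 69 lower genes (79.7%) had the same sign in growing oocytes, with medians of 0.71 and -0.66. A fully grown change under 0.5 in size was found in 112 of the 201 genes (55.7%) and 117 of the 215 (54.4%). Over all 8185 genes that share was 83.9%. Conversely, a growing change under 0.5 was found in 26 of the 79 (32.9%) and 25 of the 69 (36.2%), against 77.6% of the 8185.

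The growing deletion library carried most of the stage differences. For each gene the library farthest from the median of the other 3 was found. Among the 332 genes past the rule this was growing deletion in 204 (61.4%), highest in 110 and lowest in 94, fully grown deletion in 55 (16.6%), growing control in 47 (14.2%) and fully grown control in 26 (7.83%). The same library also stood apart most often among the 7853 genes not past the rule, in 3229 (41.1%), with 14.1% for growing control, 22.8% for fully grown control and 21.98% for fully grown deletion. This library is the only one of its group, so no stage difference can be computed without it, and whether its distance comes from the genotype or from the library cannot be told apart.

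**Figure D3:**
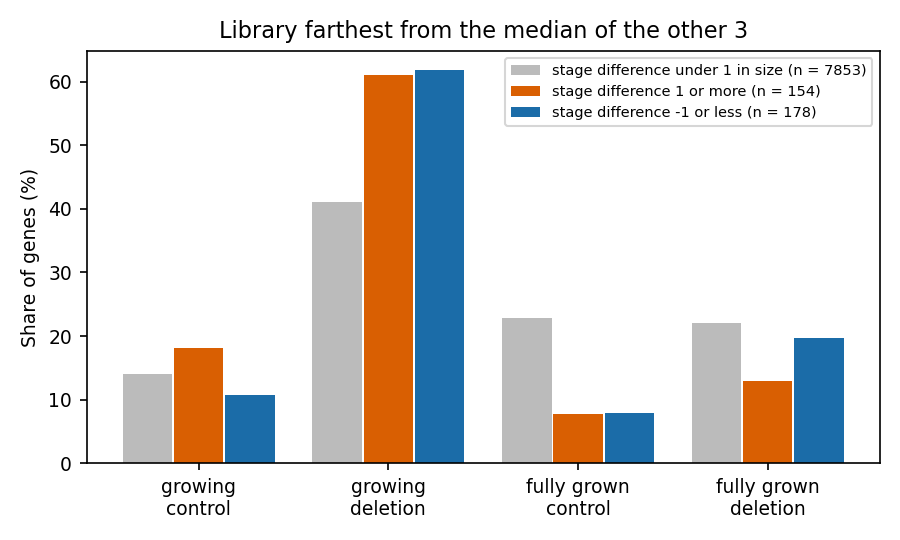
Share of genes (percent) for which each of the 4 libraries lay farthest from the median of the other 3 on log2(FPKM + 1), for genes with a stage difference under 1 in size, of 1 or more and of -1 or less, without short RNA genes. The bars of growing deletion are the tallest in all 3 gene groups, at 41.1%, 61.0% and 61.8%.

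Read along growth, the stage difference is the growth change in deletion oocytes minus that in control oocytes. Genes with a positive stage difference were nearly level over growth in control, with a median change from growing to fully grown of -0.06, and had a median of 1.23 in deletion. Genes with a negative one had medians of -0.12 in control and -1.40 in deletion. These genes were chosen on the gap between their growth changes in deletion and control, so the gap between the medians follows from the choice. Over all 8185 genes the SD of the growth change was 0.446 in control and 0.634 in deletion. Zfp771 and Ublcp1 had growth changes of -1.68 and -0.81 in control and of -3.30 and -2.36 in deletion. Nmu had a growth change of 0.50 in control and 2.86 in deletion, from a low value in growing deletion to near the control level.

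Stage differences were concentrated in low genes. Of 841 genes with a mean under 5 FPKM over the 4 libraries 12.5% were past the rule, of 3459 genes at 5 to 20 FPKM 4.89%, of 2683 at 20 to 100 FPKM 1.94%, and of 1202 at 100 FPKM or more 0.499%. Genes with a mean under 5 FPKM were taken only because some library reached 5 FPKM. They were thus selected for spread between libraries, and their high share follows in part from that choice. The 6 genes past the rule at 100 FPKM or more, named here after their values were seen, were Tlcd2, Tfap2e, Gipc2 and Snhg6 with positive and Krtcap2 and Atp6v0c-ps2 with negative stage differences. Tlcd2 stood at 667 FPKM in control and 291 in deletion at the growing stage, and 441 and 393 at the fully grown stage, and Tfap2e, an AP-2 transcription factor gene, at 115, 90.0, 88.0 and 156 FPKM. Krtcap2, a subunit of the oligosaccharyltransferase, was at 74.8, 140.3, 122 and 94.9 FPKM. Their stage differences were 1.03, 1.17 and -1.26, close to the limit of the rule. Just outside that limit were Fkbp5 at 0.995 and Ptplad1 at -0.998, and just inside it Rgn at 1.004 and Sh3rf1 at -1.002. At the limit of 5 FPKM, Cog7 and Pax2 reached 4.998 and 4.999 FPKM and were left out, while 1810049H13Rik at 5.007 and 4933430H15Rik at 5.008 entered.

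Genes past the rule also differed from the rest in transcript length and base composition. The median transcript length was 2184 bases for positive and 1973 for negative stage differences, against 3029.5 for all genes. Median transcript GC was 48.5% for positive and 53.4% for negative stage differences, against 49.2% for all. Across 8157 genes, which are not independent replicates, Spearman's rho of the deletion change with transcript GC was 0.35 in growing and 0.39 in fully grown oocytes, and -0.005 for the stage difference. The median growing change went from -0.12 in genes under 40% GC to 0.41 in genes at 60% or more, and the fully grown change from -0.17 to 0.32. The trend with GC was thus alike at both stages in the median, but the share of genes with a negative stage difference past the rule went from 0.630% to 7.0% over the same range, while the share with a positive one went from 2.1% to 1.56%. Genes at 60% GC or more numbered 257, of which 18 had a stage difference of -1 or less. The part of base composition in these calls was examined only by removing the trend with GC and length from each deletion change, which left 170 positive and 191 negative genes past the rule, short RNA genes included.

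**Figure D4:**
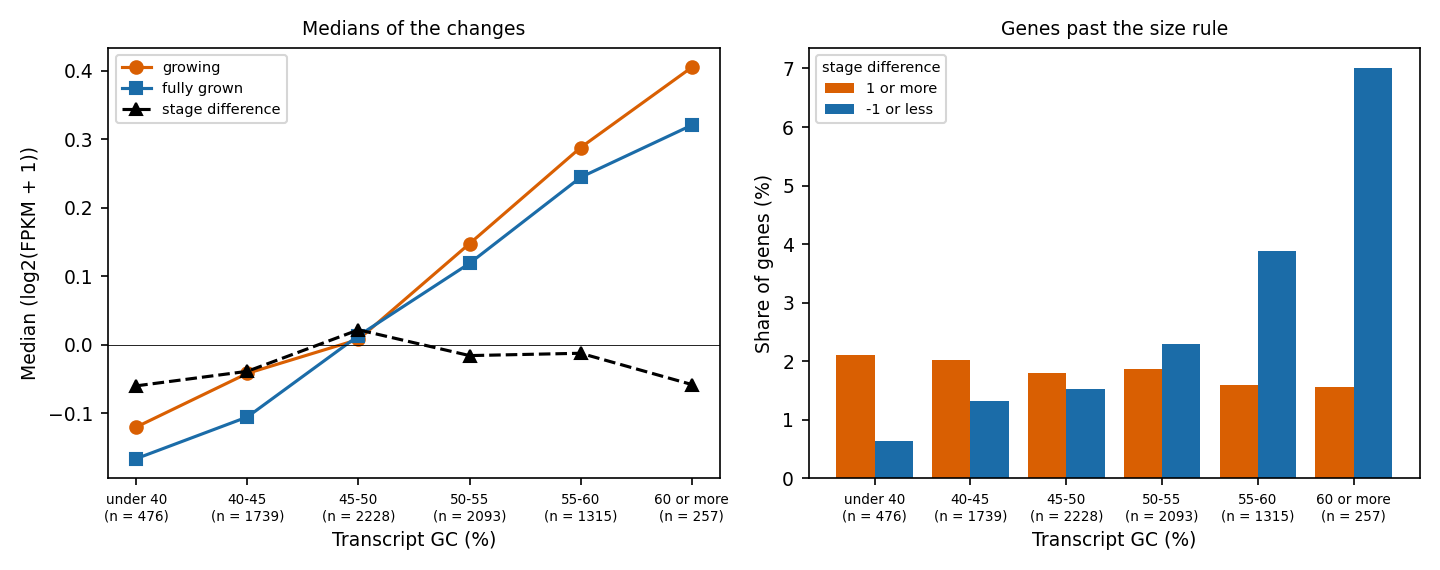
Left, medians of the growing change, the fully grown change and the stage difference in log2(FPKM + 1) by class of transcript GC (percent). Right, share of genes (percent) with a stage difference of 1 or more and of -1 or less in each class; both deletion changes climb with GC while the stage difference stays between -0.06 and 0.02, and the share of -1 or less goes from 0.630% to 7.0%.

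Genes of ribosome assembly, the process in which DCAF13 acts, had median stage differences near 0. None of the 49 large-subunit and 33 small-subunit ribosomal protein genes at 5 FPKM was past the rule, against 4.59% of all genes. Without short RNA genes that share was 4.06%. Their median deletion changes were 0.31 and 0.23 in growing and 0.23 and 0.24 in fully grown oocytes, with median stage differences of -0.03 and -0.00, against -0.01 for all genes. In the list of 18S rRNA processing 1 of 49 genes was past the rule, Nob1, the endonuclease that trims the 18S rRNA, at 11.9, 21.2, 8.07 and 6.24 FPKM in the order growing control, growing deletion, fully grown control, fully grown deletion. In the list of large-subunit assembly 1 of 47 was, Gltscr2, which encodes a nucleolar protein, at 23.2, 41.3, 12.8 and 9.95 FPKM. Both were above control in growing deletion and below it in fully grown deletion, with stage differences of -1.11 and -1.14. Of 19 genes of RNA polymerase I transcription, Ubtf, the upstream binding factor at ribosomal RNA genes, was past the rule, at 5.48, 13.9, 1.37 and 1.67 FPKM. The median stage differences of these lists were -0.06, -0.06 and -0.10. The 72 mitochondrial ribosomal protein genes held none past the rule and had a median of -0.09, with 23 members above 0. CRL4 ligase genes numbered 22, with none past the rule and a median stage difference of 0.00, although their median deletion change was 0.22 in growing and -0.01 in fully grown oocytes. The share of genes past the rule fell with level and was 0.499% at a mean of 100 FPKM or more. The lists of this paragraph were not compared with genes of like level, so their counts show nothing particular to their genes.

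Genes with known roles in the oocyte had median stage differences near 0. Of 26 genes of the zona pellucida and oocyte growth, 41 maternal effect genes, 37 genes of mRNA storage and decay, 43 of meiotic resumption and the cell cycle and 33 of DNA and histone methylation, none was past the rule. Their median stage differences were 0.02, 0.01, 0.07, 0.02 and 0.09. Counts of 0 in lists of this size lie near the 4.59% of all genes, or the 0.499% of genes at a mean of 100 FPKM or more, and show nothing particular to these genes. In the list of meiotic recombination 1 of 15 was past it, Mei4, which is needed for the DNA breaks that start recombination, at 6.76 FPKM in control and 1.22 in deletion at the growing stage, and 11.5 and 8.17 at the fully grown stage. Mei4 was below control at both stages, by more in growing oocytes. Its deletion changes were -1.80 and -0.44, with a stage difference of 1.36. Genes of the 2-cell embryo reached 5 FPKM in 5 cases, none of them past the rule.

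The lists of stress response, p53 target, cholesterol synthesis and glycolysis genes held none past the rule, where the share over all genes of 4.59% would come to about 1 gene or fewer per list. The list of the unfolded protein and integrated stress response had the most positive median stage difference of the lists with 6 or more members, 0.24, with 19 of 26 members above 0 and none past the rule, against 3996 of 8235 above 0 over all genes. Its median deletion change was 0.02 in growing and 0.24 in fully grown oocytes. Hspa5, the chaperone BiP, chosen here after its values were seen, stood at 107 FPKM in control and 142 in deletion at the growing stage, and 72.1 and 126 at the fully grown stage. Ddit3, the transcription factor CHOP, chosen likewise, was at 118, 153, 114 and 206 FPKM. Both were above control at each stage, with stage differences of 0.40 and 0.47. Of 13 p53 target genes, 17 of cholesterol synthesis and 15 of glycolysis none was past the rule, with medians of -0.03, -0.06 and -0.13. In cholesterol synthesis the median deletion change was 0.09 in growing and 0.29 in fully grown oocytes, a difference opposite in sign to the median of the stage differences.

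Translation factors held 1 of 58 genes past the rule, Eif4ebp1, an inhibitor of cap-dependent translation, with 15.1 FPKM in control and 22.9 in deletion at the growing stage, and 10.3 and 6.58 at the fully grown stage. Proteasome subunits held 1 of 35, the immunoproteasome subunit Psmb10, at 0.599, 5.47, 1.61 and 1.90 FPKM, and so only just at the minimum. Respiratory chain genes held 2 of 81, both isoforms typical of muscle. Cox6a2, which overlaps Itgad, stood at 47.5, 20.02, 42.2 and 40.6 FPKM, and Cox7a1 at 5.38, 6.77, 1.87 and 10.5 FPKM, with stage differences of 1.15 and 1.73. Tubulin and spindle genes held 2 of 36, Tuba3b and Haus7, described above. These counts lie near or under the 4.59% of all genes.

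Histone genes and a short list of regulators of transcription had negative medians, below those of the other lists apart from that of small nucleolar RNA genes. Of 14 replication-dependent histone genes at 5 FPKM, 2 were past the rule in the positive and 3 in the negative direction. Over all genes the shares were 2.06% and 2.53%. The list's median stage difference was -0.29. The median was -0.04 once the trend with GC and length was removed. Hist1h4c stood at 7.75, 5.21, 12.6 and 19.2 FPKM in the order growing control, growing deletion, fully grown control, fully grown deletion, and Hist3h2a at 4.51, 10.6, 5.64 and 3.40 FPKM. These are opposite directions within 1 family, with stage differences of 1.06 and -1.67. Histone H4 genes encode the same protein and share sequence, so their separate values are uncertain, and their mRNAs mostly lack a poly(A) tail. A list of Id, Snai1, Tgif1 and Gsc regulators, drawn up with earlier results known, had 6 members and a median stage difference of -0.50. Of these members 2 were past the rule, both negative, against 2.53% of all genes in that direction. Tgif1, a homeobox repressor, was at 24.99, 31.1, 7.58 and 3.81 FPKM, and Gsc is described above. Zinc finger genes had a median of -0.11, with 55 of 140 above 0. All 5 past the rule were negative (3.57%), near the 2.53% of all genes past it in that direction. Zfp263 stood at 3.81, 5.91, 1.28 and 0.466 FPKM.

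Solute carriers, which move metabolites over membranes, were past the rule in 5 of 108 cases, 3 positive and 2 negative, close to the 4.59% of all genes. Slc6a15, a transporter of neutral amino acids, was at 10.1 FPKM in control and 0.452 in deletion at the growing stage, and 11.3 and 7.97 at the fully grown stage, a stage difference of 2.48. Like Nmu, it was below control at both stages, by far more in growing oocytes, with deletion changes of -2.93 and -0.45. Slc25a28, a mitochondrial iron carrier gene, stood at 6.08, 5.44, 3.62 and 8.66 FPKM, and Slc48a1, a heme transporter gene, at 5.20, 12.7, 5.36 and 5.12 FPKM. Slc50a1, a sugar transporter gene, was at 0.710, 5.08, 1.49 and 1.64 FPKM. The first of these was highest in fully grown deletion and the other two in growing deletion. Predicted and clone-named genes were past the rule in 63 of 793 cases, 37 positive and 26 negative. They made up 24.0% of the genes with positive and 14.6% of those with negative stage differences, against 9.80% of all genes. 9130015A21Rik, the clone-named gene with 43.0, 2.26, 36.6 and 12.6 FPKM, was low in deletion at both stages, with a stage difference of 2.29.

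**Figure D5:**
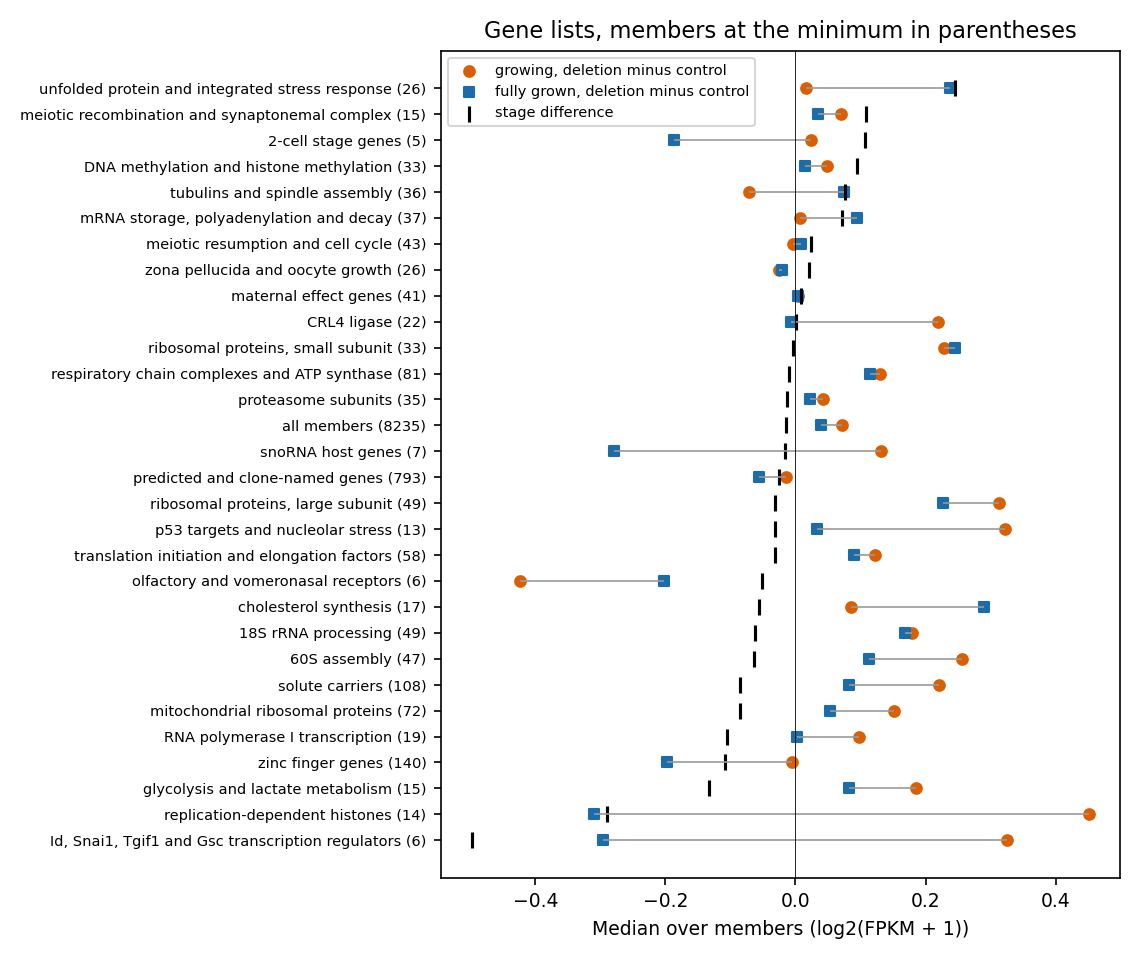
Medians over the members of gene lists, leaving out the small nucleolar RNA list and the cell type markers, of the growing change (circles), the fully grown change (squares) and the stage difference (ticks), in log2(FPKM + 1), with the number of members at 5 FPKM or more in parentheses; a median of differences need not equal the difference of medians. Ticks of the other lists shown lie between -0.13 and 0.11, the unfolded protein response list at 0.24, histones at -0.29 and the Id, Snai1, Tgif1 and Gsc list at -0.50.

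Short RNA genes gave values that swing between 0 and high levels, and their stage differences are not read further. Of 25 small nucleolar and Cajal body RNA genes at 5 FPKM, 22 were past the rule, 4 positive and 18 negative. Snord83b was listed at 0, 0, 111 and 0 FPKM, Snord100 at 0, 0, 105 and 0, Snord95 at 0, 0, 0 and 82.6 and Snora44 at 0, 0, 0 and 5.95 in the order growing control, growing deletion, fully grown control, fully grown deletion. In each of these 4 genes a single library carried the value. Of 7 snoRNA host genes, Snhg1 and Snhg6 were past the rule in the positive and Snhg9 in the negative direction. The shares over all genes were 2.06% and 2.53%.

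Markers of each other cell type summed to far less than the oocyte markers in every library. All 17 oocyte markers were at 5 FPKM or more, with sums of 29022 FPKM in control and 31367 in deletion at the growing stage, and 26021 and 26753 at the fully grown stage, and none was past the rule. These markers also served to check the pairing of symbols, so their level is no independent check of the tissue. Of 19 granulosa and cumulus markers 4 reached 5 FPKM, and the list summed to 196, 187, 188 and 162 FPKM, of which Serpine2 alone gave 155, 164, 158 and 129.8. Cyp19a1, the aromatase of granulosa cells, stood at 17.7, 7.75, 19.0 and 16.8 FPKM, with a stage difference of 0.93, and Inha, the inhibin alpha subunit, at 6.53, 2.16, 2.40 and 4.99 FPKM, with one of 2.07. Nr5a2, a nuclear receptor gene, was at 5.87, 4.88, 3.90 and 3.62 FPKM in the same order, with a stage difference of 0.14. Inha is not among the 3 most abundant markers of this list and was picked on its values, as the only one of the 4 past the rule. At the growing stage the deletion values of Cyp19a1, Inha and Nr5a2 lay below control, and that of Serpine2 lay slightly above it. Of the 134 genes led by growing oocytes, 64 were lower in deletion. Fewer attached granulosa cells and less RNA per cell cannot be told apart here, and their part in the stage differences was not tested. Theca and stroma markers (13) summed to 1.68 to 3.31 FPKM with Lhcgr and Lum at 0, and blood and immune markers (11) to 1.25 to 3.74 FPKM with Hba-a1, Hba-a2, Hbb-b1 and Hbb-b2 at 0. Endothelial markers (8) summed to 14.6 to 21.2 FPKM, mostly from Pecam1, with Cdh5 at 0.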

How the data were processed

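Polyadenylated RNA of 4 pools of 10 mouse oocytes, 1 per group, was sequenced after Smart-seq2 and Tn5 library preparation, per the labels' protocols. The submitters' processing notes list TopHat2 2.0.11, Bowtie2 2.1.0, CASAVA 1.8, Cufflinks 2.2.1 and the build mm9, with settings, strand handling and gene models not given in the sources used here. Per the file headers, the authors deposited FPKM with 1 value per gene symbol and library. The 4 per-sample tables were identical to the whole table.

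Symbols were re-paired in byte order, and the start positions printed are the deposited ones raised by 1. Computed with Python 3.11.15, pandas 2.3.3 and numpy 2.4.6: log2(FPKM + 1), both deletion changes, the stage difference, and counts at 1 or more in size over genes at 5 FPKM or more in any library. The calculation was tested on simulated data. No test, interval or floor was possible with 1 library per group and unknown depth. The scale understates changes of low genes. Transcript GC and length are those of the longest GENCODE transcript of each symbol, found for 8157 genes (99.1%). Promoters were matched by symbol to RefSeq for 6628 genes (80.5%).

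Genes, lists and members were chosen with earlier results of these data known. Named were Dcaf13, the 12 highest and 12 lowest stage differences at 20 FPKM or more in any library (without predicted, clone-named and short RNA genes and pseudogenes), 4 per class and direction by the same filter, up to 2 called members per list and direction, and for each other cell type its 3 most abundant markers. Others are pointed out. Alternatives were the pseudocount, the minimum, a rescaling of libraries, removal of the GC and length trend, leaving out short RNA genes, and symbols as deposited.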

Additional observations from a re-analysis of the deposited data

Results flagged for a closer look

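Deletion changes of 1 or more in opposite directions at the 2 stages were found in 5 genes, Tuba3b, Gm7334, Btg3, Gstt4 and the short RNA gene Mir3968. Tuba3b had a stage difference of 2.54, and its near-identical copy Tuba3a shares its sequence. Gm7334 had a stage difference of 3.34, from 6.59 FPKM in control and 1.31 in deletion at the growing stage, and 0.00710 and 2.11 at the fully grown stage. It overlaps Btg3, which stood at 0.0065, 5.74, 2.34 and 0.0057 FPKM in the same order, high where Gm7334 was low. How reads were divided between these overlapping genes is not given, so their opposite changes are not separate observations and both values are uncertain. With 1 library per group the difference between stages was not tested for any of these genes.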

How the results depend on the processing

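Counts of genes past the size rule depended on how low genes were treated. With a pseudocount of 5 they were 56 positive, 79 negative, 44 led by growing and 33 led by fully grown oocytes, against 170, 208, 134 and 53. With a minimum of 1 FPKM they were 294, 381, 258 and 91, and with a minimum of 20 FPKM 58, 75, 43 and 21. A mean of 5 FPKM over the libraries, chosen after seeing the data, gave 136 negative, 83 led by growing and 33 led by fully grown oocytes. Without short RNA genes 26 genes were led by fully grown oocytes. These 4 counts moved by less than 1.5 times without the GC and length trend, with median-ratio rescaling and with 0.1 as the pseudocount. Opposite changes numbered 58, and 96 with a pseudocount of 0.1, 12 with one of 5, 110 with a minimum of 1 FPKM and 16 with one of 20 FPKM. Genes past 1 at both stages numbered 24 higher and 28 lower, and 66 and 44 with a pseudocount of 0.1, 2 and 8 with one of 5, 7 and 15 with a minimum of 20 FPKM, and 11 higher with a mean of 5 FPKM. The cause was not tested. Of 63 named genes past the rule, 20 fell under it with a pseudocount of 5, and 3 (Cstb, Atp6v0c-ps2 and Mir762) without the GC and length trend.

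With symbols as deposited these genes had a stage difference of the other sign: Agpat9 -0.58, C1qb -0.16, Hmgn3 0.094, Pdgfa 0.064, Izumo4 0.26, Zfp771 0.014, Ublcp1 0.12, Kcnn2 -0.10, Noto 0.016, Snhg1 -0.23, Taok3 -0.51, Gltscr2 0.31, Snhg6 -0.33, Cox7a1 -0.086, Slc48a1 0.42, Slc25a28 -0.50, LOC100302567 0.11 and Atp6v0c-ps2 0.10. A further 38 of the 63 fell under the rule and 7 stayed past it. No paired analysis was possible because each group holds 1 library, and leaving out a library removes its group. Depth is unknown, so what it limits cannot be given.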

Other observations

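The X chromosome held 20 genes past the size rule among 246, of which 13 were positive and 7 negative (8.13%), against 2.22% to 5.32% on the other chromosomes. It was picked after the values were seen, as the chromosome with the highest share. Whether its genes differ from the others in level was not tested. Btg3, an antiproliferative gene, was listed at 0.006 FPKM in control and 5.74 in deletion at the growing stage, and 2.34 and 0.006 at the fully grown stage. It overlaps Gm7334, whose values ran the other way, so its reads may be shared. Gstt4, a glutathione transferase gene, stood at 2.24, 0.308, 2.38 and 8.23 FPKM. Ddx4, an RNA helicase of germ cells, stood at 48.5, 81.1, 19.2 and 17.1 FPKM, with a stage difference of -0.88, the most negative of the 17 oocyte markers. Gm18756 stood at 0.795, 21.4, 11.9 and 8.98 FPKM, with one of -4.02. These genes were chosen after their values were seen, apart from Gm18756.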
